A study of Rattus norvegicus with 19 samples.

Results

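The 16p11.2 duplication was studied in the rat hippocampus by comparing the 5 libraries described as Dup/+ with the 6 libraries described as wild type (wt), 11 of the 19 RNA sequencing libraries of the series. Members were taken from the description field of the sample labels. For wt replicate 5 the genotype field of the label gave Dup/+ while the description gave wt. The library was counted as wt, and the counts of calls under the other reading are given with the results.

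All animals were male Sprague Dawley rats, an outbred stock, and the tissue was hippocampus, with 1 library per animal. The Dup/+ animals carried 1 normal chromosome and 1 chromosome with a CRISPR/Cas9 duplication of the segment of chromosome 1 from *Sult1a1* to *Spn*, which gives 3 copies of the interval against 2 in wt. The remaining 8 libraries, 4 Del/+ with 1 copy and 4 Del/Dup with a deleted and a duplicated chromosome, entered the same statistical fit and were used here only for direct contrasts with Dup/+. The wt animals were littermates and the animals were adult. Their exact ages and the number of founders of the line were not given in the sources used here. Sequence variants carried with the engineered chromosome and the gain of copies cannot be told apart.

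The human 16p11.2 segment is a gene-dense stretch whose loss or gain recurs in people, often with autism or delayed development. Its genes act in unrelated processes, among them a MAP kinase (*Mapk3*), an adaptor that brings RhoA to a Cullin 3 ubiquitin ligase (*Kctd13*), a presynaptic protein linked to movement disorders (*Prrt2*) and a glycolytic enzyme (*Aldoa*). A gain of a whole segment raises the template for every gene in it, and the amount of RNA may follow the number of copies or depart from it.

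The 2 guide targets of the genome editing are shown because together they set the ends of the duplicated interval. Both are given 5′ to 3′ in lower case, in the order in which the study lists them. Their genome positions were not determined here. The study lists the first guide, without its first base, among the 5′ guides of its Long Evans deletion model. For the second guide it names no end.
First guide: gcaatctcacgtgtctgatgg
Second guide: gtgacatcgtgaccctgctgg

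Of 15440 genes tested, 42 were called between Dup/+ and wt at a Benjamini-Hochberg adjusted p under 0.05 in the quasi-likelihood test of edgeR. Of these, 33 were higher and 9 were lower in Dup/+ (0.0583% of the genes tested), and 21 lay in the interval. Levels are given as CPM, the reads of a gene scaled to a common library size with the TMM factors, and are not corrected for gene length. At an unadjusted p under 0.05, 8.94% of all genes tested passed, 4.46% higher and 4.48% lower.

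The libraries held 16191192 to 29183777 gene counts in Dup/+ and 25642772 to 38760645 in wt. The mean log2 total was 0.36 lower in Dup/+ than in wt (exact permutation p = 0.0368, adjusted over 3 library measures 0.0476). The percentage of multi-mapped reads, 45.1% to 50.5% in Dup/+ and 40.1% to 47.6% in wt, was 3.55 percentage points higher in Dup/+ (exact permutation p = 0.0476, adjusted 0.0476). Neither p held throughout. With wt 5 counted as Dup/+ they were 0.18 and 0.074. The p of the total was above 0.05 without wt 1, wt 2, wt 4, wt 5, Dup/+ 1, Dup/+ 3 or Dup/+ 5, and that of the multi-mapped share without wt 1, wt 2, wt 5, wt 6 or any of Dup/+ 1 to 4. The ranges of the groups overlapped in both measures, and their part in the calls was not tested apart from the fits described under the dependence on processing. Neuronal markers were present in every library: the dentate gyrus factor *Prox1* had a mean of 160.3 CPM in wt and 161 CPM in Dup/+. The CA1-enriched *Wfs1* had means of 346 and 286 CPM.

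The genotype labels were checked with the interval itself. The median log2 difference of the interval genes from the wt mean was between -0.05 and 0.03 in the 6 wt libraries and between 0.49 and 0.58 in the 5 Dup/+ libraries. The groups did not overlap, and their means differed by 0.54 (exact permutation p = 0.0022, the smallest value that the 462 splits can give, adjusted 0.0066). The library with conflicting labels, wt 5, had a value of -0.04, within the range of the other wt libraries.

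The interval list held 32 genes, of which 28 were tested. *Gdpd3*, *Tbx6*, *Zg16* and LOC102552638 had too few reads to pass the expression filter. Of the 28 tested, 21 (75%) rose in Dup/+ and none fell. Over all 15440 genes, 0.214% were called higher. The list was chosen as the segment from *Sult1a1* to *Spn* that is described as duplicated, and the levels of *Sult1a1*, given below, did not follow 3 copies. The median log2 fold change of the 28 genes was 0.53 (quartiles 0.48 and 0.61), a fold of 1.44, where the median of all genes tested was -0.0018. In 21 of the 28 genes the Dup/+ and wt libraries did not overlap, while 1.17% of all genes tested had no overlap in either direction and 0.674% had Dup/+ above wt. Summed over the interval, the level was 3067 ± 76.3 CPM (SD, n = 6) in wt and 4429 ± 120 CPM (n = 5) in Dup/+.

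A dose of 3 copies against 2 gives a ratio of 1.5, or 0.58 on the log2 scale. The 95% interval of the log2 fold change held this value in 25 of the 28 genes and lay wholly below it in 3, *Prrt2*, *Sult1a1* and *Qprt*. It lay above it in none. With wt 5 counted as Dup/+, 7 interval genes and 5 genes outside were called and the interval median was 0.45, and leaving wt 5 out gave 20 interval genes among 38 calls. All 17 genes with a wt mean of at least 10 CPM were called, against 4 of the 11 genes below that level.

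**Figure D1:**
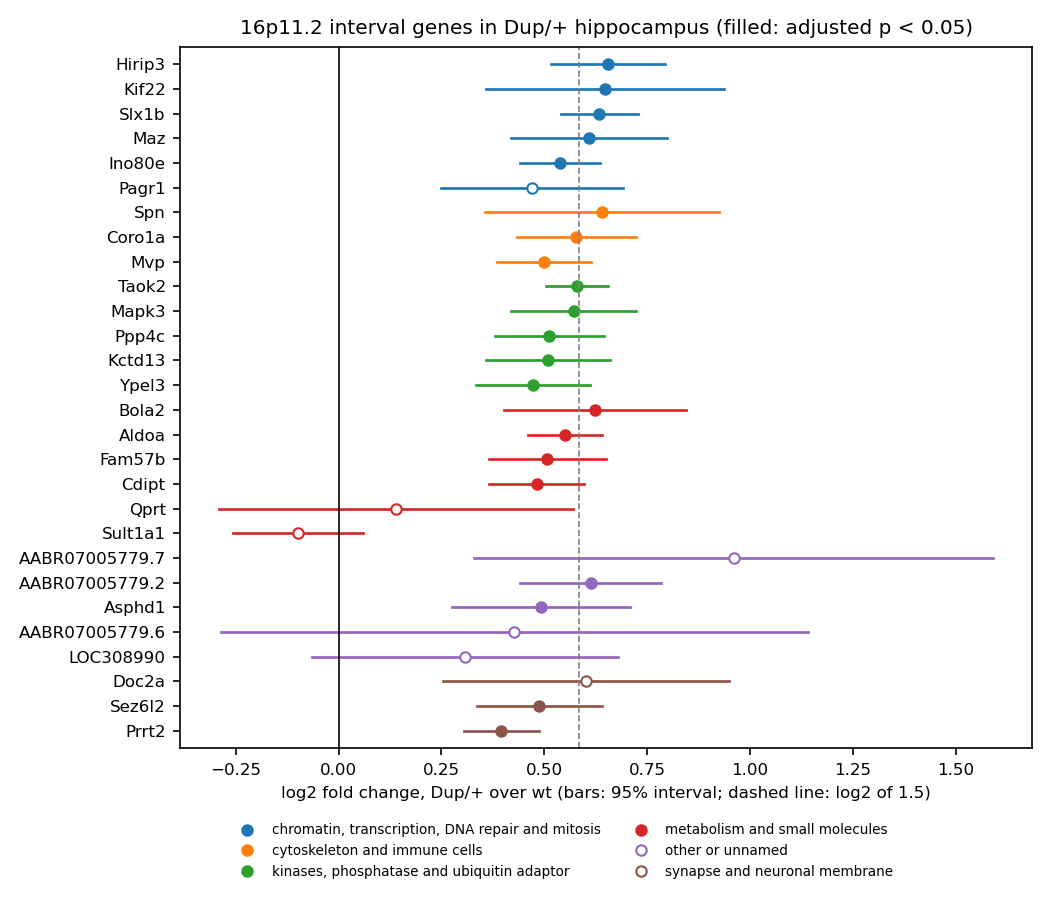
Log2 fold change of Dup/+ (n = 5) over wt (n = 6) for the 28 tested interval genes, with 95% intervals as bars, grouped by colour into 6 roles and filled where the adjusted p was under 0.05. Most points sit between 0.40 and 0.66 near the dashed line at log2 of 1.5, while *Sult1a1* (-0.10) and *Qprt* (0.14) sit left of it.

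The genes of signalling enzymes and an adaptor, with *Ypel3* listed beside them, were 5 in all. Each of them rose, with log2 fold changes from 0.47 to 0.58. *Mapk3*, which encodes the kinase ERK1, had wt levels from 88.5 to 98.4 CPM with a median of 95.6. Its Dup/+ levels were 154, 147, 139, 129 and 135 CPM. Every Dup/+ library lay above every wt library, and the log2 fold change was 0.57 (SE 0.073, edgeR adjusted p = 2.2e-04).

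*Taok2*, a kinase upstream of stress-activated MAP kinases, had the smallest p of all genes tested. Its wt levels ran from 213 to 224 CPM with a median of 223, and the Dup/+ levels were 328, 322, 338, 338 and 328 CPM. The separation was wide against a spread of 4.38 CPM (SD) in wt and 6.76 in Dup/+, and the log2 fold change was 0.58 (SE 0.036, edgeR adjusted p = 1.2e-08).

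*Kctd13* had wt levels from 79.6 to 85.9 CPM with a median of 83.2. Its Dup/+ levels were 119.5, 116, 123, 109.9 and 122 CPM. The libraries did not overlap and the log2 fold change was 0.51 (SE 0.073, edgeR adjusted p = 7.0e-04). *Ppp4c*, the catalytic subunit of protein phosphatase 4, rose by 0.51 and *Ypel3* by 0.47, both without overlap.

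Of the 3 genes of the synapse and the neuronal membrane, 2 rose. *Prrt2*, which interacts with the vesicle release machinery, had wt levels from 153 to 169.6 CPM with a median of 157. Its Dup/+ levels were 219, 215, 208, 196 and 207 CPM, all above wt. The log2 fold change was 0.40 (SE 0.044, edgeR adjusted p = 4.4e-05), with a 95% interval from 0.30 to 0.49 that ended below 0.58.

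*Sez6l2*, a neuronal membrane protein, rose by 0.49, from a mean of 554 ± 42.1 CPM (SD, n = 6) to 776 ± 42.2 CPM (n = 5). *Doc2a*, a calcium sensor of neurotransmitter release, was not called although its log2 fold change was 0.60 (SE 0.166, edgeR adjusted p = 0.24). Its wt levels, 7.53 to 12.9 CPM with a median of 8.92, overlapped the Dup/+ levels of 18.3, 13.3, 17.7, 11.24 and 13.3 CPM.

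Of the 6 genes of chromatin, transcription, DNA repair and mitosis, 5 rose, with a median log2 fold change of 0.62 over the 6. *Hirip3*, a partner of a histone chaperone, had the largest value of the interval genes called. Its wt levels ran from 18.1 to 23.9 CPM with a median of 20.8, and its Dup/+ levels were 32.1, 32.4, 33.9, 32.0 and 33.9 CPM. The log2 fold change was 0.66 (SE 0.067, edgeR adjusted p = 1.3e-05).

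*Slx1b*, a subunit of a structure-specific endonuclease, rose by 0.63 with little spread, from 25.2 to 26.9 CPM in wt and from 38.5 to 41.7 CPM in Dup/+. *Ino80e*, of the INO80 remodelling complex, rose by 0.54 and the zinc-finger factor *Maz* by 0.61. *Kif22*, a chromosome-binding kinesin, was low at 1.24 ± 0.166 CPM (SD, n = 6) in wt and 1.99 ± 0.257 in Dup/+ (n = 5), a log2 fold change of 0.65 (edgeR adjusted p = 0.041). *Pagr1*, a component of a histone methyltransferase complex, was not called at 0.47 (edgeR adjusted p = 0.070), although its libraries did not overlap.

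All 3 genes of the cytoskeleton and of immune cells rose. *Coro1a*, an actin-binding coronin, went from 105 ± 4.30 CPM (SD, n = 6) to 157 ± 5.98 (n = 5), a log2 fold change of 0.58. *Mvp*, the major vault protein, rose by 0.50 and *Spn*, a leukocyte surface sialoglycoprotein at the edge of the interval, by 0.64 from 3.37 CPM (edgeR adjusted p = 0.044). *Spn*, *Kif22* and *Asphd1* lost their calls in 15 or more of 21 alternative fits, and *Asphd1* was the 1 called interval gene whose libraries overlapped (edgeR adjusted p = 0.044).

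**Figure D2:**
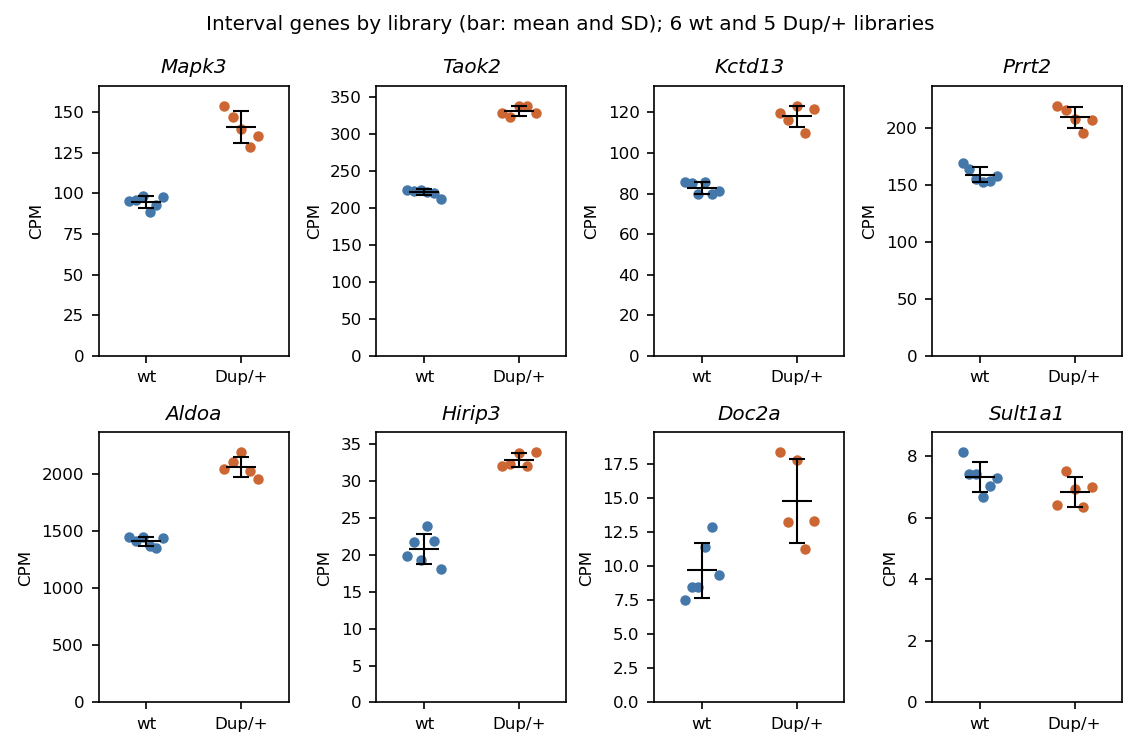
CPM of 8 interval genes in each of 6 wt and 5 Dup/+ libraries, with the mean and SD as bars and axes starting at 0. *Mapk3*, *Taok2*, *Kctd13*, *Prrt2*, *Aldoa* and *Hirip3* show Dup/+ points wholly above wt, *Doc2a* overlaps, and *Sult1a1* overlaps (6.68 to 8.11 CPM in wt, 6.35 to 7.51 in Dup/+).

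Of the 6 tested metabolic genes, 4 rose. *Aldoa*, which makes up 45.9% of the summed level of the interval in wt, had wt levels from 1350.2 to 1444 CPM with a median of 1423. Its Dup/+ levels were 2047, 2106, 2188, 2025 and 1954 CPM, a log2 fold change of 0.55 (SE 0.043, edgeR adjusted p = 2.0e-07). *Bola2*, which takes part in iron-sulfur cluster delivery, rose by 0.62, *Fam57b* by 0.51, and *Cdipt*, the phosphatidylinositol synthase, by 0.48.

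*Qprt*, an enzyme of NAD synthesis from tryptophan, was low at 1.498 ± 0.198 CPM (SD, n = 6) in wt and 1.65 ± 0.307 in Dup/+ (n = 5). Its log2 fold change of 0.14 was not called, with a 95% interval from -0.29 to 0.57.

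*Sult1a1*, a sulfotransferase of phenolic compounds at 1 end of the interval, had wt levels from 6.68 to 8.11 CPM with a median of 7.35. Its Dup/+ levels were 6.398, 7.51, 6.93, 6.35 and 7.002 CPM. The groups overlapped, the log2 fold change was -0.10 (SE 0.076, edgeR adjusted p = 0.74), and the 95% interval from -0.26 to 0.06 did not hold 0.58. In Del/+ the mean was 3.31 ± 0.218 CPM (SD, n = 4) and in Del/Dup 3.09 ± 0.270 (n = 4). Dup/+ was higher than Del/Dup by 1.13 on the log2 scale (SE 0.092, edgeR adjusted p = 2.6e-07), although 1 Del/Dup chromosome also carries the duplication. *Mapk3* differed from Del/Dup by 0.64, and 20 of 28 interval genes were called higher in Dup/+ than in Del/Dup (0.181% of all genes tested).

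Against Del/+, 27 of the 28 genes were called higher (0.486% of all genes tested). The unnamed transcripts of the interval were mixed. AABR07005779.2 rose by 0.61 and was at 7.24 CPM in wt, while AABR07005779.7, AABR07005779.6 and LOC308990 had wt means below 1 CPM and were not called (log2 fold changes of 0.96, 0.43 and 0.31).

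The genes beside the interval were examined next. Gene order here is that of the GRCr8 table, which is another assembly than the one used for counting. Over the 25 tested genes on each side, the median log2 fold change was -0.02, with values from -0.43 to 0.24. Of these 50 genes, 6 had an unadjusted p under 0.05, and 1 of them, *Sgf29*, was called. All 6 lay below 0, which is 12% of the 50, where 4.48% of all genes tested passed in that direction.

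*Sgf29*, a reader of histone methylation in the SAGA complex, was the tested gene next to the interval on the *Sh2b1* side. Its wt levels ran from 8.15 to 10.0 CPM with a median of 9.20. Its Dup/+ levels were 6.81, 7.199, 6.09, 6.58 and 7.16 CPM, so that it fell by 0.43 on the log2 scale (SE 0.080, edgeR adjusted p = 0.014) with no overlap. The call was lost without wt 1, without Dup/+ 3, without Dup/+ 4 and with wt 5 counted as Dup/+, with values from -0.47 to -0.31 over all alternatives. In Del/Dup, which also carries the duplicated chromosome, the mean was 7.10 ± 0.916 CPM (SD, n = 4), and in Del/+ it was 8.79 ± 0.608 (n = 4). Dup/+ was lower than Del/+ (-0.37, edgeR adjusted p = 0.048), while the difference from Del/Dup was -0.07 (edgeR adjusted p = 0.78).

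Of the 12 tested genes of the list on that side, *Sgf29* was the 1 that fell and none rose (0.272% of all genes tested were called), and the list median was 0.01. At an unadjusted p under 0.05, 4 of the 12 were lower and 0 higher. *Atxn2l* and *Spns1*, named after their values were seen, had values of -0.15 and -0.15 (edgeR adjusted p = 0.48 and 0.50). On the *Spn* side 38 genes were tested, with a median of -0.01, and *Slc5a2* alone was called. There, 1 gene was higher and 2 were lower at an unadjusted p under 0.05. *Tgfb1i1*, also named after its values were seen, had a value of 0.31 (edgeR adjusted p = 0.28). Of 5 further tested genes listed for the region, 0 were called in edgeR and 1 had an unadjusted p under 0.05. It was AABR07005779.1 (-0.17), which is also among the 50 flanking genes.

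**Figure D3:**
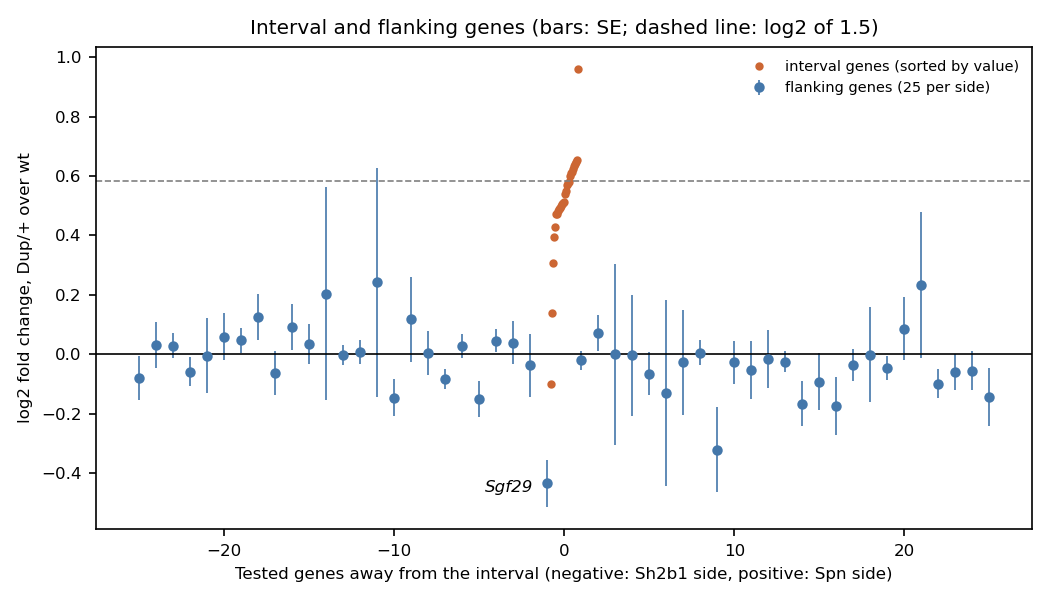
Log2 fold change of Dup/+ over wt for the interval genes (sorted by value) and for 25 tested genes on each side, with SE as bars, plotted by their rank in gene order. The flanking points have a median of -0.02, with *Sgf29* at -0.43 next to the interval.

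Outside the interval 21 of 15412 genes were called (0.136%), 12 higher (0.0779%) and 9 lower (0.0584%). This count depended on the fit: it was 9 to 21 with 1 library left out and 55 in DESeq2 (26 higher, 29 lower). The median absolute log2 fold change of the 21 edgeR calls was 0.89. Of them, 18 had no overlap between Dup/+ and wt, against 1.17% of all genes tested. Both values come from the libraries that chose these genes, so they are descriptions. In 8 of them the wt mean was below 1 CPM. Directly against the other carriers, 8 of the 21 were also called against Del/+ (0.61% of genes outside the interval) and 2 against Del/Dup, both higher (0.188% in either direction, 0.0519% higher), with 1 in both. The contrasts share the Dup/+ libraries that chose these genes. The multi-mapped share was 41.6% to 76.3% in Del/+ and 57.8% to 70.7% in Del/Dup, against 45.1% to 50.5% in Dup/+, and its part in these contrasts was not tested.

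Haemoglobin genes were among those called. Both genes of the alpha globin *Hba-a2*, near-identical copies whose split of reads is uncertain, and the beta globin *Hbb* rose. The first *Hba-a2* gene (ENSRNOG00000047321) had wt levels from 30.4 to 39.5 CPM with a median of 32.3 and Dup/+ levels of 53.4, 51.2, 44.6, 51.7 and 62.8 CPM. Its log2 fold change was 0.66 (SE 0.107, edgeR adjusted p = 0.0037). The second (ENSRNOG00000029886) rose by 0.56 from a mean of 75.6 to 111 CPM.

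*Hbb* had wt levels from 16.4 to 29.8 CPM with a median of 25.7, and Dup/+ levels of 38.1, 45.5, 35.3, 40.8 and 43.3 CPM. It rose by 0.76 (SE 0.156, edgeR adjusted p = 0.038), without overlap. *Alas2*, the erythroid enzyme of haem synthesis, was not called (0.58, edgeR adjusted p = 0.078), although its libraries did not overlap.

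Of the 7 tested genes of the blood list 3 were called higher (0.214% of all genes tested), their median was 0.56, and the summed level ran from 119.5 to 164 CPM in wt and from 184 to 247 CPM in Dup/+. *Slc4a1* and *Epb42*, the red cell membrane genes of the list, had values of 0.28 and -0.04 (edgeR adjusted p = 0.77 and 0.97). In whole tissue, more cells of a type and more RNA per cell cannot be told apart, and blood left in the vessels was not measured here. The first *Hba-a2* gene was higher in Dup/+ than in Del/+ by 0.76 (edgeR adjusted p = 0.0020), and the second by 0.72 (0.0034). Against Del/Dup the second was higher by 0.56 (edgeR adjusted p = 0.047), and the first was not called (0.52, 0.074). *Hbb* was called against neither Del/+ (0.72, edgeR adjusted p = 0.060) nor Del/Dup (0.61, 0.14). The first *Hba-a2* gene kept its call without any 1 library. The second lost it without wt 1, wt 2, wt 4, Dup/+ 1, Dup/+ 2 or Dup/+ 5, and *Hbb* lost it without any of these or without wt 6 or Dup/+ 4. Both also lost it with *Ttr* as covariate, with the replicate block and with wt 5 counted as Dup/+.

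Beside haemoglobin, 2 genes of iron handling rose. *Heph*, a copper-dependent ferroxidase of iron export, had wt levels from 4.93 to 7.16 CPM with a median of 5.195 and Dup/+ levels of 11.5, 8.62, 8.07, 7.70 and 9.89 CPM (log2 fold change 0.74, SE 0.140, edgeR adjusted p = 0.018). *Cyb561a3*, a lysosomal ferrireductase, had wt levels from 4.02 to 5.28 CPM with a median of 4.32 and Dup/+ levels of 7.39, 7.03, 9.20, 8.04 and 7.52 CPM (0.80, SE 0.136, edgeR adjusted p = 0.0057). Neither overlapped wt. *Heph* lost its call without wt 1, wt 2, Dup/+ 1 or Dup/+ 5, and both lost it with wt 5 counted as Dup/+. The pair was grouped after the values were seen.

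*Gpd1*, a glycerol phosphate dehydrogenase, rose by 0.31 from 70.4 ± 3.56 CPM (SD, n = 6) to 87.3 ± 10.8 (n = 5), with Dup/+ 5 inside the wt range (edgeR adjusted p = 0.044). Its call was lost in 14 of 21 alternative fits. The unnamed AABR07006310.1 had the smallest p of the genes called outside the interval. Its wt levels ran from 3.36 to 6.35 CPM (median 4.93), and its Dup/+ levels were 30.3, 23.8, 23.2, 24.9 and 26.0 CPM. Its log2 fold change was 2.39 (SE 0.277, edgeR adjusted p = 5.4e-05). It was at 28.3 ± 2.52 CPM in Del/+ and 23.7 ± 13.8 in Del/Dup (SD, n = 4 each), and Dup/+ did not differ from either by a called amount (-0.14 and 0.11, edgeR adjusted p = 0.87 and 0.90).

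Several called genes rest on few reads. RF00100 is the 7SK RNA family, with 422 gene entries of like sequence of which 31 were tested. The 2 called entries (0.272% of all genes tested were called) had log2 fold changes of 2.30 and 1.03, with 10 reads in the 6 wt libraries and 67 in the 5 Dup/+ libraries for the first, a ratio of 10.2 with an exact counting interval from 5.19 to 22.1. The first entry passed the expression filter through its Dup/+ level, so its ratio is a description. Such intervals pool the libraries and cover counting error only, and the fitted fold changes of these genes are drawn toward 0 by the prior count. Of the 31 entries, 26 lay above 0, 12 passed an unadjusted p under 0.05 upward and 1 downward, and their median was 0.32, and the summed level of the family, 2857 to 3859 CPM in wt and 2772 to 3965 in Dup/+, overlapped. Reads of such copies may be assigned to any of them.

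*Rcor2l1* had 1 read in wt, in wt 3, and 34 reads in Dup/+, present in every Dup/+ library, a ratio of 51.5 with an exact counting interval from 8.64 to 2095. It passed the expression filter through the carrier groups, so the ratio is a description. The fitted log2 fold change of 2.16 depends on the prior count. The gene could be tested in 11 of the alternative fits and lost its call in 4 of them, without wt 6, with wt 5 counted as Dup/+, with the replicate block and with *Ttr* as covariate, with values from 1.90 to 5.01. Its Del/Dup mean was 0.360 CPM against 0.268 in Dup/+. AABR07043287.1 had a log2 fold change of 2.38 with Dup/+ levels of 1.20, 1.66, 1.91, 1.73 and 0.198 CPM, the last within the wt range of 0.0921 to 0.371. It too passed the expression filter through carrier groups, so its fold change is a description. RF00009, of the RNase P RNA family, rose by 1.07 with overlap and lost its call in 14 of 21 fits.

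Of the 9 genes that fell outside the interval, *Slc5a2*, a sodium-glucose cotransporter, and *Pdilt*, a protein disulfide isomerase-like protein, were 2 of the 5 on chromosome 1, with *Sgf29*, *Ucp3* and *Ampd3*. *Slc5a2* had wt levels from 0.630 to 0.955 CPM (median 0.762) and Dup/+ levels of 0.248, 0.277, 0.239, 0.269 and 0.356 CPM (-1.29, SE 0.212, edgeR adjusted p = 7.0e-04). *Pdilt* had wt levels from 0.548 to 1.01 CPM (median 0.629) and Dup/+ levels of 0.0826, 0.381, 0.119, 0.231 and 0.316 CPM (-1.31, edgeR adjusted p = 0.018), and lost its call in 6 of 20 fits. Both stood below 1 CPM in the mean of each group. They passed the expression filter through groups other than Dup/+, so their fold changes are descriptions.

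*Ucp3*, a mitochondrial uncoupling protein, was named by the study on these samples, so its direction is not independent evidence. It fell by 2.098 on the log2 scale (edgeR adjusted p = 0.032), with 99 reads in 6 wt libraries, 44 of them in wt 1, and 8 reads in 5 Dup/+ libraries. The gene passed the expression filter through groups other than Dup/+, so this fold change is a description. Its call was lost without wt 1, wt 2, Dup/+ 1, Dup/+ 3, Dup/+ 4 or Dup/+ 5, with *Ttr* as covariate and with wt 5 counted as Dup/+, with values from -2.98 to -1.48 over the 19 alternatives in which it was tested. Of the 9 tested genes of that list it was the 1 called (0.272% of all genes tested), 4 passed an unadjusted p under 0.05 upward and 2 downward, and *Rad21l1* (0.78) and *Itgb6* (0.99) had edgeR adjusted p of 0.19 and 0.30.

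*Ampd3*, an AMP deaminase, fell by 0.23 with wt levels from 67.8 to 74.7 CPM (median 68.7) and Dup/+ levels of 59.4, 58.2, 57.4, 60.0 and 62.7 CPM, with no overlap (edgeR adjusted p = 0.044). Its call was lost in 16 of 21 alternative fits, with adjusted p up to 0.29. *Mroh1* fell by 0.19 from 69.2 ± 3.77 CPM (SD, n = 6) to 60.6 ± 1.63 (n = 5), and lost its call in 18 of 21 fits. *Plekhd1* fell by 0.54 from 25.4 to 17.4 CPM and lost its call in 10 of 21 fits. *Klhdc7a* fell by 1.07, with a wt range of 5.54 to 13.01 CPM in which wt 1 was far above the rest, and lost its call in 8 of 21. *Ncf4*, an NADPH oxidase subunit of phagocytes, fell by 0.89 from 0.516 CPM, and lost its call in 17 of 20 fits, DESeq2 included. It passed the expression filter through groups other than Dup/+, so its fold change is a description.

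**Figure D4:**
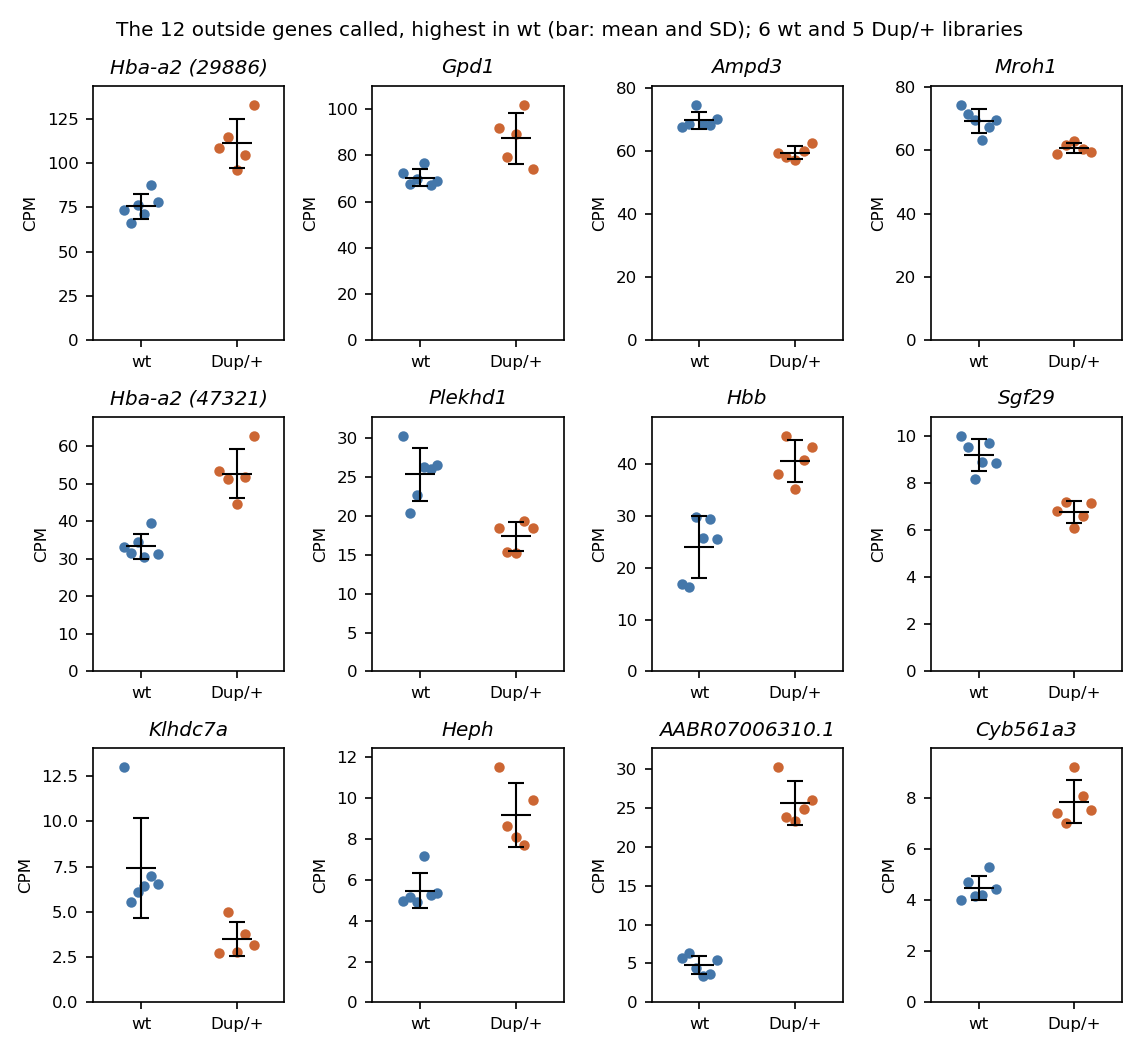
CPM in each library of the 12 genes called outside the interval with the highest wt level, with the mean and SD as bars and axes starting at 0. The 2 *Hba-a2* genes carry the last digits of their identifier, Dup/+ points sit above wt for the globins and AABR07006310.1 and below for *Sgf29*, *Ampd3* and *Plekhd1*, and *Gpd1* overlaps.

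The called genes outside the interval were unevenly placed. Of the 15 with a match in the gene table, 7 lay on chromosome 1 (46.7%), which holds 12.1% of the matched genes tested. On chromosome 1 outside the interval 0.422% of tested genes were called and on the other chromosomes 0.0666%. By tested genes from the interval, *Sgf29* was 1 away, *Pdilt* 58, *Ampd3* 104, *Hbb* 146 and *Ucp3* 183 on the *Sh2b1* side, and *Slc5a2* 42 and *Cyb561a3* 362 on the *Spn* side. The 6 called genes without a match are not counted here.

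Genes of pathways linked to the interval did not form a called group. None of the 31 genes of the ERK cascade, in which *Mapk3* acts, was called (0.272% of all genes tested), and their median was -0.02. *Elk1* (-0.24), *Rasa1* (0.14) and *Dusp4* (0.20) had the smallest p, with edgeR adjusted p from 0.12 to 0.41. None of the 22 genes around Cul3 and RhoA, the partners of *Kctd13*, was called, with a median of -0.01 and *Limk2* (-0.10) and *Cfl1* (-0.12) nearest. At an unadjusted p under 0.05, 4 of the 31 (2 higher, 2 lower) and 2 of the 22 (both lower) passed, against 4.46% higher and 4.48% lower over all genes tested, and DESeq2 called 1 of the 31.

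Of 18 immediate-early genes and 49 synaptic genes none was called, with medians of -0.08 and -0.05. *Grin1* (-0.14), *Nrxn2* (-0.19) and *Syn1* (-0.18) had edgeR adjusted p from 0.48 to 0.53, and 36 of the 49 synaptic genes lay below 0. Of 13 tested genes of hippocampal subfields none was called, with a median of -0.03. At an unadjusted p under 0.05, 0 of the 18, 4 of the 49 (all lower) and 1 of the 13 (higher) passed.

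Markers of the other cells of the tissue were not called in edgeR. The oligodendrocyte list had a median of 0.11 with 13 of 15 above 0 (*Mog* 0.25, edgeR adjusted p = 0.49), the astrocyte list -0.03 and the microglia list -0.11 (*Cx3cr1* -0.20, edgeR adjusted p = 0.19). Vessel and meninges markers had a median of -0.02. Neurogenesis and cell cycle genes had 0.05, clock genes 0.01 and glucocorticoid targets 0.02, and none of these was called. Of 9 tested markers of neighbouring brain areas and pituitary, 0 were called in edgeR. At an unadjusted p under 0.05, 3 oligodendrocyte genes and 1 vessel gene were higher, and 1 astrocyte and 2 microglia genes were lower. In the same way 2 neurogenesis, 2 clock, 2 glucocorticoid genes and 1 neighbouring-area gene were higher, and 1 neurogenesis, 3 clock and 1 glucocorticoid gene were lower. DESeq2 called none in these lists.

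Choroid plexus genes are epithelial markers of the ventricles that a dissection can carry along. All 16 tested lay above 0 with a median of 1.39, and none was called in the edgeR fit of 19 libraries. At an unadjusted p under 0.05 there were 3, and DESeq2 and the edgeR fit of only the 11 libraries called 1 each. *Ttr*, the main choroid plexus transcript, had Dup/+ levels of 2.85, 352, 6.81, 5.62 and 88.4 CPM and wt levels from 0.921 to 27.4 CPM (edgeR adjusted p = 0.52). The summed list level was 653 CPM in Dup/+ 2, against 105 to 169 CPM in wt and 130.2 to 261 CPM in the other Dup/+ libraries. For motile cilia and ependyma 25 of 25 tested lay above 0 with a median of 0.32 and 8 were higher at an unadjusted p under 0.05 (4.46% of all genes tested), none of them called. *Cfap52* (0.43) and *Cfap44* (0.66) had edgeR adjusted p of 0.24 and 0.33. The part of these in the genes called was not tested beyond the fit with *Ttr* as covariate.

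**Figure D5:**
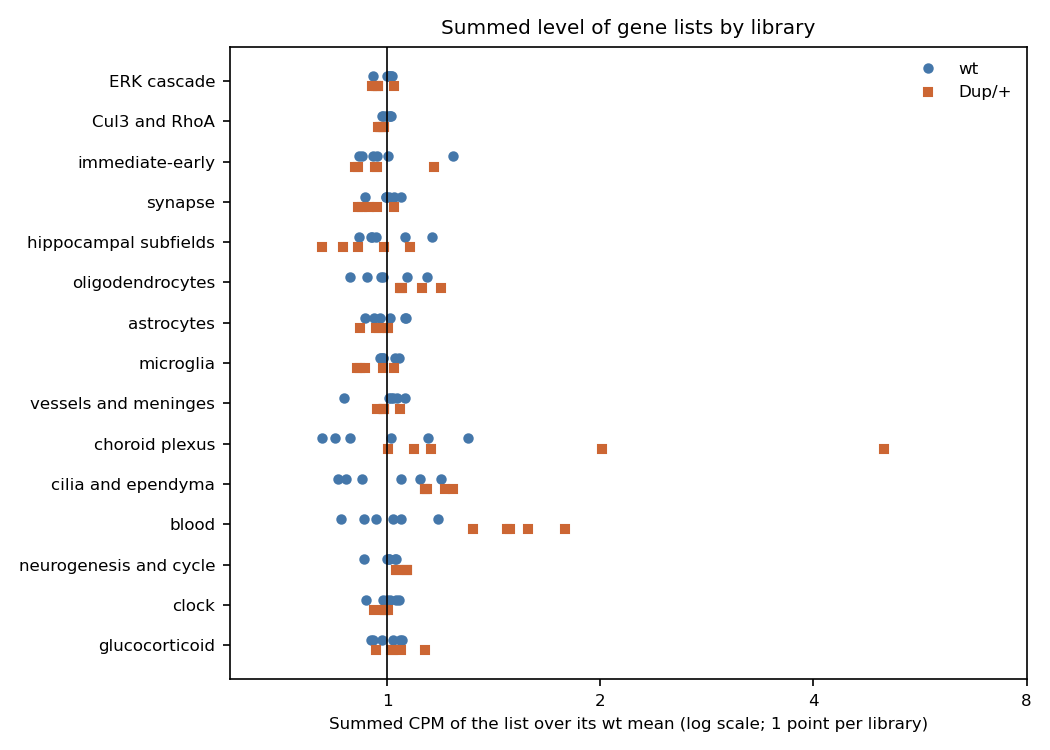
Summed CPM of 15 gene lists in each library, divided by the wt mean of the list, on a log axis, with wt as circles and Dup/+ as squares. The blood list sits above wt in all 5 Dup/+ libraries, and choroid plexus is highest in Dup/+ 2 (653 CPM).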

How the data were processed

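RNA sequencing of hippocampus was compared between 5 Dup/+ and 6 wt male rats. The authors made stranded total RNA libraries (the protocol removes rRNA, while the labels name polyA RNA), and per the labels aligned single-end reads to rn6 with HISAT2 and counted them with HTSeq. The deposited values are raw read counts for 32623 genes, and 5 summary lines were left out. Exact ages and sample preparation batches were not given in the sources used here.

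Of 24345 genes with a read, 15440 passed filterByExpr and were tested with edgeR 4.0.16 in R 4.3.3 (TMM factors, quasi-likelihood F test, prior count 2, 4 group means estimated jointly over 19 libraries). Calls needed a Benjamini-Hochberg adjusted p under 0.05, and the common biological coefficient of variation was 0.101. The standard error (SE) is the log2 fold change without the prior count divided by the square root of F, and intervals were centred on the printed fold change, which the prior count draws toward 0 in genes with few reads, so there their ratio does not give the printed p. Library measures were compared with two-sided exact permutation tests. P-values measure the spread between these libraries. The script was tested on simulated data. Alternatives were DESeq2 1.42.0, other scalings and filters, covariates, the other reading of wt 5 and leaving out libraries. Gene order came from the GRCr8 table, with no genome used. The members and gene lists were chosen with earlier results of these data known. Named genes are every interval gene, called genes of the flanks and elsewhere outside, and from each other list its called members, up to 3 with the smallest p and up to 2 first listed. *Alas2*, *Slc4a1*, *Epb42*, *Prox1*, *Wfs1*, *Atxn2l*, *Spns1* and *Tgfb1i1* were named after their values were seen.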

Additional observations from a re-analysis of the deposited data

Results flagged for a closer look

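Of 90 sets of values of a group examined, 15 held a library that lay apart from the others by Dixon's criterion, and chance alone flags about 1 in 20. Among genes these were *Heph* in wt 4 (7.16 CPM), *Pdilt* in wt 5 (1.01), *Rcor2l1* in wt 3 (0.0371), *Klhdc7a* in wt 1 (13.01), *Ucp3* in wt 1 (1.17) and *Ampd3* in wt 3 (74.7). Among summed list levels they were the ERK cascade in wt 4 (2848 CPM) and Dup/+ 4 (3058), immediate-early genes in wt 5 (912) and Dup/+ 4 (859), vessel and meninges markers in wt 4 (356) and Dup/+ 2 (426), choroid plexus in Dup/+ 2 (653), neurogenesis and cell cycle genes in wt 2 (135.5) and clock genes in Dup/+ 5 (1202).

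Some genes called outside the interval also differed between Dup/+ and another carrier group in the edgeR contrast of the same fit. Against Del/+, the log2 difference was 0.76 (adjusted p = 0.0020) for *Hba-a2* ENSRNOG00000047321, 0.72 (0.0034) for *Hba-a2* ENSRNOG00000029886, 0.68 (0.035) for *Cyb561a3* and 1.60 (0.034) for RF00100 ENSRNOG00000058108. It was -2.60 (0.0037) for *Ucp3*, -1.21 (0.034) for *Pdilt*, -0.99 (0.043) for *Klhdc7a* and -0.37 (0.048) for *Sgf29*. Against Del/Dup it was 0.56 (0.047) for *Hba-a2* ENSRNOG00000029886 and 2.34 (0.047) for AABR07043287.1. All these contrasts share the Dup/+ libraries that chose the genes. RF00100 ENSRNOG00000058108, AABR07043287.1, *Ucp3* and *Pdilt* passed the expression filter only through groups where their levels were higher, so their differences are descriptions.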

How the results depend on the processing

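The cause of the changes below was not tested. DESeq2 called 77 genes (62.34% higher, against 78.57% in edgeR), 29 of them lower, with 55 outside the interval (26 higher, 29 lower), 1 in the ERK list and 1 in the choroid plexus list. With only the 11 libraries, 0 genes of the study's list (*Ucp3* was not tested) and 1 choroid plexus gene were called. The stricter filter left 4 lower and 11 outside calls (7 higher, 4 lower), with 0 in the *Spn* side list and 0 in the study's list, where *Ucp3* was again not tested. With wt 5 counted as Dup/+, 12 genes were called (10 higher, 2 lower), 7 in the interval and 5 outside (3 higher, 2 lower), with 1 in the blood list and 0 in both flank lists and the study's list. The interval median was then 0.45, the log2 total difference -0.27 and the multi-mapped difference 3.30 points, and *Egr4* (0.0721) and *Sox9* (0.0133) turned direction. With the multi-mapped share as covariate, 37 genes were called, 34 of them shared with the fit without it (19 in the interval, 15 outside), and 5 were lower, all 5 outside. With *Ttr* as covariate, 5 lower and 12 outside calls were made (7 higher, 5 lower), with 0 in the study's list and 1 in the blood list, and *Kl* turned to -0.0692.

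Replicate numbers did not pair the libraries (correlations of same-numbered deviations from -0.10 to 0.10). The fit with a replicate block called 31 genes, 28 of them shared with the fit without it, with 5 lower, 13 outside (5 lower) and 1 in the blood list.

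Leaving out 1 library at a time gave 27 to 40 calls (27 without wt 1 or without Dup/+ 1), 24 to 32 higher and 2 to 8 lower. The interval had 18 to 20 calls, and outside it there were 9 to 21 (6 to 13 higher, 2 to 8 lower). The *Sh2b1* side list had 0 to 1, the study's list 0 to 1 and the blood list 1 to 3. The interval median ran from 0.51 to 0.55, the interval level difference from 0.53 to 0.55, the total difference from -0.43 to -0.22 and the multi-mapped difference from 2.67 to 4.27 points. Of the 21 interval calls 6 held in every fit run, with 0 reversals. Apart from *Spn*, *Kif22* and *Asphd1*, interval calls were lost only with the library of conflicting labels counted as Dup/+. Of the 21 outside, *Hba-a2* ENSRNOG00000047321 held in all 21 alternatives, and none of the 21 reversed. RF00100 ENSRNOG00000058108 passed the filter through its Dup/+ level, so its calls in the 20 alternatives that tested it are no sign of stability.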
